A study of Mus musculus with 8 samples.

Results

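The genes described here are Itln1, Reg3a, Reg3b, Reg3g and Reg4, which code for secreted lectins of the mouse gut. They were taken by symbol, as intelectin-1 and the listed members of the Reg family, and are 5 of the 55414 genes in the count table. Intelectins are soluble proteins that bind sugars found on microbial surfaces. Reg proteins are small C-type lectins. Reg3g and Reg3b are made by cells of the small intestinal epithelium, act on bacteria and help to keep them away from the mucosal surface. Their transcription is known to follow microbial signals through the adaptor Myd88 and the cytokine IL-22 through the transcription factor Stat3.

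Paneth cells (PCs), the granule-filled secretory cells at the base of small intestinal crypts, were sorted by flow cytometry from 8 mice, and each mouse gave 1 RNA-seq library. The study's methods describe C57BL/6J mice, and its gate took cells high in CD24 and c-Kit and negative for CD31, CD45 and TER119. For 7 days, 4 mice drank Milli-Q water, which is purified laboratory water, and 4 drank water with 25 mM ZnSO4. Every mouse then received an injection of the inflammatory cytokine TNF (tumor necrosis factor), and PCs were taken 3 hours later. No mice without TNF were analysed here, so every level below is a level after TNF, and the comparison asks what zinc in the drinking water did under TNF. Libraries are called Milli-Q 1 to 4 (water 1 to 4 in the plots) and zinc 1 to 4, after their replicate numbers. The labels give 1 sample per replicate number and name no litter, cage or batch.

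The libraries held 10623658 to 15101627 counts. Levels are given as CPM, counts set to a common library size with TMM factors, which hold the bulk of genes level between libraries. A count of 0 leaves room for up to 3 counts, or 0.179 to 0.369 CPM depending on the library. The PC products Lyz1 and Defa24 averaged 157340 and 179330 CPM, and the 14 PC markers were all counted. Of the immune markers Ptprc, Cd3e, Itgam and Adgre1, the first had 2 counts in all libraries together, the next 1, then 3 and 0. The same list also held Jchain with 3 counts, Igkc with 40 and Lyz2 with 1981, at 13.1 to 27.4 CPM. The library labelled zinc 3 stood apart: its log2 CPM correlated at 0.83 to 0.89 with the other libraries, which correlated with each other at 0.947 or more. Its 14 TNF response genes summed to 112 CPM against 1366 to 1614 CPM in the other 7 libraries, which goes against its label of TNF treatment, so the folds, spreads and correlations of the 5 genes are given with and without it, and for the gene lists, a choice made after the data had been seen, the counts and medians are too.

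The 3 Reg3 genes lie in 1 cluster, and Reg4 and Itln1 lie on other chromosomes. On GRCm39, Reg3b is at chr6:78347640-78350455 (plus strand), Reg3a at chr6:78357692-78360810 (plus strand) and Reg3g at chr6:78443246-78445859 (minus strand). The stretch of 98.2 kb from Reg3b to Reg3g holds 6 protein-coding genes, all of them Reg genes, with Reg3d, Reg2 and Reg1 between these 3. Reg4 is at chr3:98129468-98144066 (plus strand) and Itln1 at chr1:171345690-171368943 (minus strand). Over aligned coding sequence, Reg3b and Reg3g were 76.0% identical, Reg3a and Reg3b 73.2%, and Reg3a and Reg3g 72.4%. Reg4 was 46.4% to 47.1% identical to these 3. None of the 5 shared a word of 75 bases of its canonical transcript with another gene. Only Itln1 shared words of 50 bases, 11 of 1093, with Gm9765, and no exon of the 5 overlapped an exon of another gene.

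The coding stretches below show where the antibacterial Reg3 proteins carry their best-known sugar-binding motif, glutamate-proline-asparagine, which binds bacterial peptidoglycan. Capitals mark its 3 codons, which start at codon 114, and in Reg3a the aligned codons. The 45 bases were identical at 36 positions between Reg3b and Reg3g, and at 37 between Reg3a and Reg3b. Within the 3 codons, Reg3a differed from Reg3b by G340C, counted from 1 at the first base of the start codon. Among the 5 genes, only Reg3b and Reg3g held these codons.
Reg3b: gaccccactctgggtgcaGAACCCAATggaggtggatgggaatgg
Reg3g: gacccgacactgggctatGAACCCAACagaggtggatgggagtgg
Reg3a: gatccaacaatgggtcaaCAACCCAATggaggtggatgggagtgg

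Since Reg3b and Reg3g varied together across the mice (below), the 150 bases before their RefSeq starts are also shown. On GRCm39 these windows are chr6:78347718-78347867 (plus strand) for Reg3b and chr6:78445858-78446007 (minus strand) for Reg3g. Aligned, they were identical in 67.1% of columns, against 36.9% to 45.6% for the other 9 pairs of windows among the 5 genes. Capitals mark matches to motifs searched on both strands, which were TTCNNNGAA for STAT factors, TTGCNNAA for C/EBP factors, the core promoter motif TATAAA and the kappaB motif.
Reg3b: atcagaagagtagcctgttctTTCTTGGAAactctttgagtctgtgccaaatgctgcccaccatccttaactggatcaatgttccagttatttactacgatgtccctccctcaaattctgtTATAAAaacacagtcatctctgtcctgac
Reg3g: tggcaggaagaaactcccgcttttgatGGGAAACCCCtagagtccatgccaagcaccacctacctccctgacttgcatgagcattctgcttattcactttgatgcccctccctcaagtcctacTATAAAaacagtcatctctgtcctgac

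The TATA match began 29 bases before the start in Reg3b and 27 bases before it in Reg3g. Reg3b also held a STAT match 129 bases before its start, and Reg3g a kappaB match 123 bases before its start. The windows of Reg3a, Reg4 and Itln1 held no match to these motifs. Of 32851 RefSeq windows of the same length, 4.09% held the STAT motif, 5.46% the C/EBP motif, 7.57% the TATA motif and 4.6% the kappaB motif. The matches are descriptions of letters, and binding was not measured.

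Per length of transcript, Itln1 stood above the others by a wide margin. Its level averaged 56349 CPM per kb of canonical transcript over the 8 libraries. Reg3g followed with 6176, Reg4 with 2076, Reg3b with 1315 and Reg3a with 1.19 CPM per kb. The ranges of Itln1 (47503 to 68032) and Reg3g (851 to 9894) did not meet, while those of Reg3g, Reg4 (1454 to 2702) and Reg3b (195 to 2533) overlapped. In the Milli-Q libraries alone Reg3g averaged 8357 ± 1265 (SD, n = 4), Reg4 1936 ± 505 and Reg3b 1895 ± 482 CPM per kb. In those libraries and on this length, Reg4 and Reg3b thus differed by less than the spread between mice. With zinc they averaged 2215 ± 486 and 735 ± 631 CPM per kb. Over the union of all exons the Milli-Q means of Reg4 and Reg3b were 1682 ± 438 and 1042 ± 265 CPM per kb. With the union of all exons as the length, Reg3g averaged 2230 CPM per kb over the 8 libraries against 1803 for Reg4, and the order of the 5 genes was the same, whereas in the zinc libraries alone Reg4 came out higher, at 1925 against 1443 CPM per kb. Among the 10707 genes that passed the expression filter, Itln1 ranked 4 by mean CPM, Reg3g 14, Reg4 20, Reg3b 38 and Reg3a 10386.

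**Figure D1:**
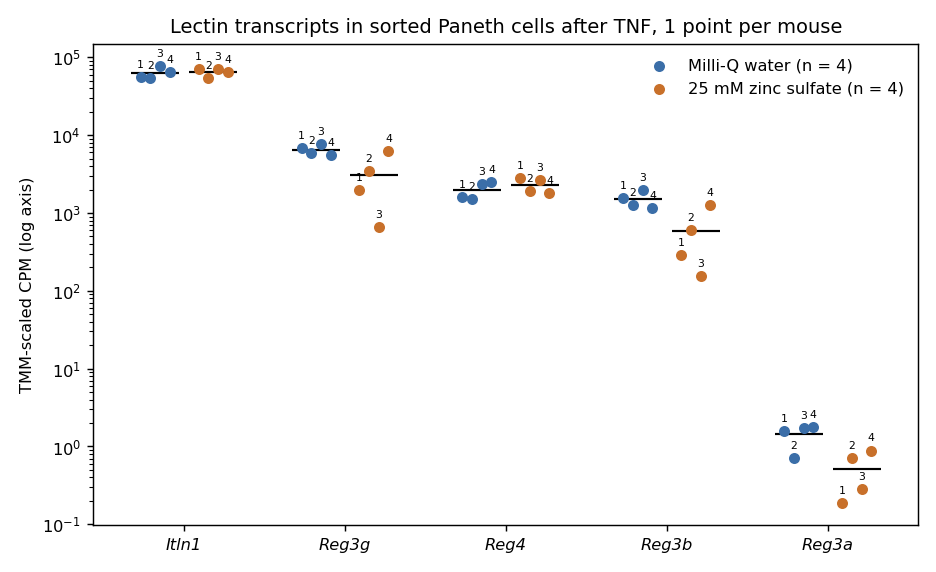
Level of each gene in each library, in TMM-scaled CPM on a log axis, with 1 point per mouse labelled by replicate number and a bar at the mean of the 4 mice of a group. The points of Itln1 and Reg4 lie close together in both groups, while the zinc points of Reg3g run from 662 to 6325 CPM and those of Reg3b from 154 to 1270 CPM.

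Itln1, which binds microbial glycans, was abundant in every library. Its levels were 55321, 54249, 77692 and 65653 CPM in Milli-Q 1 to 4. In zinc 1 to 4 they were 70464, 54921, 71137 and 65371 CPM. Both groups covered nearly the same range, with Milli-Q 2 lowest and Milli-Q 3 highest. The Milli-Q mean was 63229 ± 10928 CPM and the zinc mean 65473 ± 7491 CPM (SD, n = 4 each). The log2 fold change, zinc over water, was 0.05 with a standard error (SE) of 0.21, and the adjusted p was 0.931 in the edgeR quasi-likelihood test. Without zinc 3 the fold was 0.01 (SE 0.23).

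The share of all counts gave another picture of Itln1 than TMM-scaled CPM did. Itln1 held 5.97%, 6.03%, 5.88% and 5.86% of the counts in Milli-Q 1 to 4, and 7.08%, 6.28%, 7.70% and 6.44% in zinc 1 to 4. All 4 zinc libraries lay above all 4 Milli-Q libraries, as they did for 2.5% of the genes tested, and the widest 95% Wilson interval of these shares spanned 0.0308 percentage points. The means were 5.93% ± 0.0803 and 6.87% ± 0.650. The TMM factor was 0.758 in Milli-Q 3 and 0.893 in Milli-Q 4 against 0.986 to 1.14 in the other libraries, and the Defa genes, the alpha-defensins of PC granules, held 44.9% and 41.4% of the counts in those 2 libraries against 34.1% to 39.5% in the others. With Defa genes left out of the total, the Itln1 shares of the groups overlapped. They were then 9.23%, 9.15%, 10.67% and 9.99% in Milli-Q 1 to 4, and 11.41%, 9.59%, 12.72% and 10.17% in zinc 1 to 4. With library totals in place of TMM factors, a choice made after these shares had been seen, the log2 fold change of Itln1 was 0.21 (SE 0.11, adjusted p = 0.575, edgeR), and the median over all genes tested moved by 0.13.

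Set against the PC products Lyz1 and Defa24, Itln1 was also separated between the groups. Counts of Itln1 over counts of Lyz1 (lysozyme) were 0.409, 0.386, 0.364 and 0.356 in Milli-Q 1 to 4 and 0.455, 0.413, 0.501 and 0.421 in zinc 1 to 4. The zinc ratios all lay above the Milli-Q ratios, which also held for 2.51% of genes tested. Against Defa24 the ratios were 0.276 to 0.386 with Milli-Q water and 0.388 to 0.429 with zinc, again without overlap, as for 1.79% of genes tested. These ratios describe the balance between transcripts within a library, and they were chosen after the levels had been seen. They depend on the product set below Itln1. Lyz1 (log2 fold change -0.20, SE 0.22) and Defa24 (-0.29, SE 0.27) were among the 10 of 14 PC markers below 0. The other 4, such as Pnliprp2 (0.30, SE 0.19), lay above 0, so the separation is not stated for PC products in general.

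Reg3g, which acts on Gram-positive bacteria, had the highest mean level per kb of the Reg genes, although Reg4 was higher per kb in zinc 1 (2702 against 2570 CPM per kb) and in zinc 3 (2562 against 851). The levels in Milli-Q 1 to 4 were 6884, 5924, 7697 and 5503 CPM. In zinc 1 to 4 the levels were 2000, 3444, 662 and 6325 CPM. The 4 Milli-Q libraries lay close together, 3 zinc libraries lay below all of them, and zinc 4 lay inside their range. The Milli-Q mean was 6502 ± 984 CPM and the zinc mean 3108 ± 2427 CPM (SD, n = 4 each). The log2 fold change was -1.07 (SE 0.52), with an unadjusted p of 0.0653 and an adjusted p of 0.491 in edgeR. In bulk samples, fewer cells that express a gene and less of its RNA per cell cannot be told apart.

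Reg3b, a close relative that acts on Gram-negative bacteria, gave the same picture at a lower level. In Milli-Q 1 to 4 its levels were 1568, 1272, 1998 and 1142 CPM. In zinc 1 to 4 its levels were 289, 605, 154 and 1270 CPM. Again zinc 1, 2 and 3 lay below every Milli-Q library and zinc 4 lay among them. The means were 1495 ± 380 CPM and 580 ± 498 CPM (SD, n = 4 each). The log2 fold change was -1.37 (SE 0.53, edgeR), with an unadjusted p of 0.0272 and an adjusted p of 0.485.

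Reg3a, the third Reg3 gene, was barely counted, with 98 counts over the 8 libraries. Counts were 23, 12, 14 and 22 in Milli-Q 1 to 4 and 2, 10, 4 and 11 in zinc 1 to 4. These were worth 1.57, 0.71, 1.72 and 1.76 CPM with Milli-Q water and 0.19, 0.72, 0.28 and 0.89 CPM with zinc. Zinc 1 was under the limit of 3 counts, and zinc 2 and zinc 4 lay inside the Milli-Q range. The log2 fold change was -1.43 (SE 0.53), with an unadjusted p of 0.0211 and an adjusted p of 0.485 in edgeR.

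Reg4, a more distant Reg family member, is known from enteroendocrine and other secretory cells of the gut. Its levels in Milli-Q 1 to 4 were 1600, 1494, 2325 and 2533 CPM. Those in zinc 1 to 4 were 2775, 1892, 2631 and 1802 CPM. The groups overlapped over most of their range, with the lowest value in Milli-Q 2 and the highest in zinc 1. The means were 1988 ± 518 CPM and 2275 ± 499 CPM (SD, n = 4 each). The log2 fold change was 0.19 (SE 0.24), with an adjusted p of 0.738 in edgeR, and 0.12 (SE 0.22) without zinc 3.

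None of the 5 genes was called by the edgeR test at an adjusted p under 0.05, and neither was any other gene (0% of 10707). At an unadjusted p under 0.05 edgeR had 1092 genes (10.2%), DESeq2 called 4 genes after adjustment (0.0214% of those with an adjusted p) and limma-voom called 0, and none of these calls was one of the 5. Of the 5 genes, 2 had an unadjusted p under 0.05 with a lower level in zinc, Reg3a and Reg3b, where 3.78% of genes tested did. That count rested on the method and on single libraries. Reg3g was under 0.05 in 6 of its 19 alternatives. Its unadjusted p was 0.00373 in limma-voom, where 12.4% of genes were under 0.05, 0.0254 in DESeq2, where 6.87% were, and 0.0212 with no expression filter and 0.0330 without zinc 3 in edgeR. Reg3a stayed under it in 13 of 18 and Reg3b in 14 of 19, and without Milli-Q 1 (0.0508 and 0.0501), Milli-Q 3 (0.0501 and 0.0740) or zinc 1 (0.0556 and 0.0729) neither had an edgeR p under 0.05. No member had all zinc libraries below all Milli-Q libraries in CPM, which held for 3.12% of genes tested, nor all above, which held for 2.76%. All 3 Reg3 genes had a log2 fold change of -1 or less, as did 1.01% of genes tested.

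**Figure D2:**
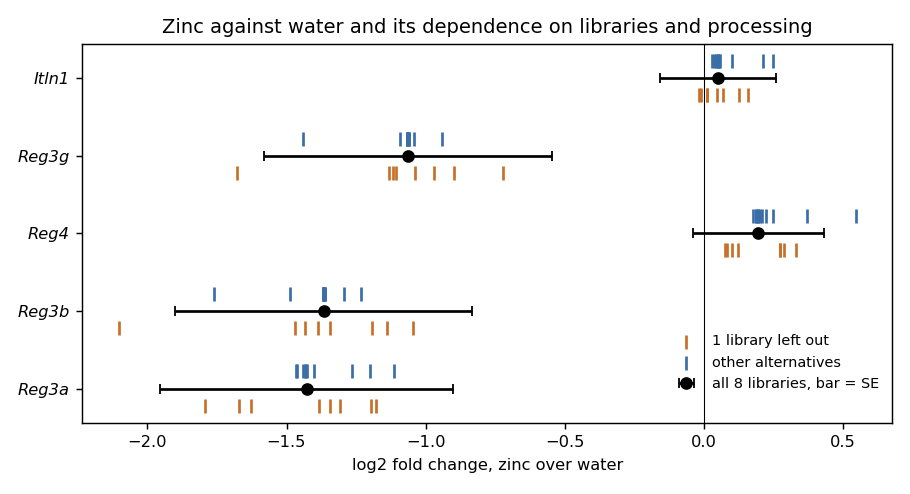
Log2 fold change, zinc over water, of each gene, with the SE as a bar. Orange ticks are fits with 1 library left out and blue ticks are other processing alternatives, and the Reg3g fold runs from -1.68 to -0.72 as single libraries are left out.

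The size of the Reg3 folds depended on 2 zinc libraries in opposite ways. Without zinc 3, the library with the low TNF response genes, the log2 fold change was -0.72 for Reg3g (SE 0.30), -1.05 for Reg3b (SE 0.37) and -1.20 for Reg3a (SE 0.54). Without zinc 4 it was -1.68 for Reg3g (SE 0.46), -2.10 for Reg3b (SE 0.43) and -1.79 for Reg3a (SE 0.57). The adjusted p in edgeR ranged from 0.178 to 0.855 for Reg3g over all alternatives, from 0.112 to 0.855 for Reg3b and from 0.201 to 0.855 for Reg3a. The direction of the 3 Reg3 genes was the same in every alternative that gave a value.

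Over all mice, the Reg3 genes varied more than Itln1 and Reg4. Over the 8 libraries the SD of log2 CPM was 1.30 for Reg3b, 1.21 for Reg3g and 1.12 for Reg3a, but 0.34 for Reg4 and 0.20 for Itln1. Among the 5916 genes with a mean of at least 10 CPM the median SD was 0.26, and 1.12% of them had a larger SD than Reg3b and 1.39% a larger one than Reg3g. Without zinc 3 the SD was 0.95 for Reg3b and 0.69 for Reg3g, and 0.27% and 0.93% of genes had a larger one. For Reg3a, Reg4 and Itln1 the SD without zinc 3 was 1.06, 0.34 and 0.20. For Reg3g the spread was within the zinc group, with an SD of 0.22 over the Milli-Q libraries and 1.38 over the zinc libraries. For Reg3b these values were 0.36 and 1.32, for Itln1 0.24 and 0.17, and for Reg4 0.38 and 0.32. The median SDs over genes of at least 10 CPM were 0.187 with Milli-Q water and 0.258 with zinc. These SDs within the zinc group include zinc 3 and are not given without it. Among the Milli-Q mice alone Reg4 thus had a larger SD than Reg3b and Reg3g, and Itln1 a larger one than Reg3g.

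**Figure D3:**
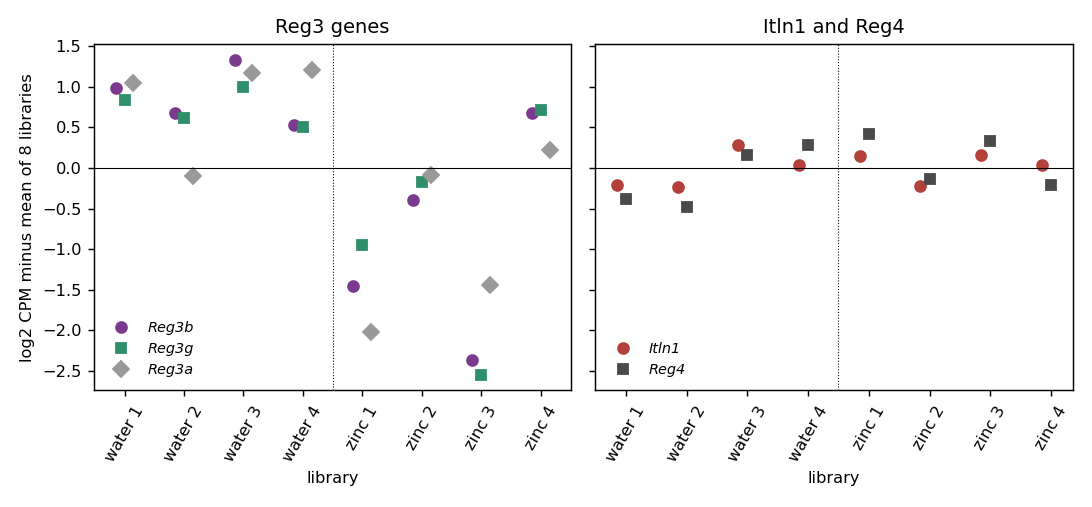
Deviation of each library from the gene's mean over the 8 libraries, in log2 CPM, for the 3 Reg3 genes (left) and for Itln1 and Reg4 (right), on a shared axis. The Reg3 genes are low in zinc 1 and zinc 3. In zinc 4 Reg3b and Reg3g lie above their means, and Reg3a only slightly above its own. Itln1 and Reg4 spread less, with an SD of 0.20 and 0.34 over the 8 libraries.

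Reg3b and Reg3g went up and down together from mouse to mouse. Across the 8 mice the Pearson correlation of their log2 CPM was 0.981 (exact permutation p = 4.96e-05, adjusted over 10 pairs 0.000496) and Spearman's rho was 0.976 (exact permutation p = 0.000397, adjusted 0.00397). Without zinc 1 and zinc 3, the 2 libraries farthest from the median, r was 0.99, and without zinc 3 alone it was 0.997. Centred on the group means, r was 0.973, with an exact permutation p of 0.00694 over the 576 pairings within groups and an adjusted p of 0.0694. The relation thus kept its size within the groups but did not pass after adjustment there. The count ratio of Reg3g to Reg3b was 3.85 to 4.82 in the Milli-Q libraries and 6.92, 5.69, 4.30 and 4.98 in zinc 1 to 4.

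Reg3a followed the other Reg3 genes less closely. Its r was 0.885 with Reg3b (exact permutation p = 0.00655, adjusted 0.0327) and 0.82 with Reg3g (exact permutation p = 0.0114, adjusted 0.0379). Spearman's rho was 0.643 and 0.69, with adjusted exact permutation p-values of 0.192 for both. Without zinc 3 alone, r was 0.89 and 0.883, with adjusted exact permutation p-values of 0.0509 for both. Without zinc 1 and zinc 3, r was 0.627 and 0.585, and centred on the group means it was 0.75 and 0.66, with adjusted exact permutation p-values of 0.33 for both. Both relations thus rest in part on those 2 libraries, in which Reg3a had 2 and 4 counts.

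**Figure D4:**
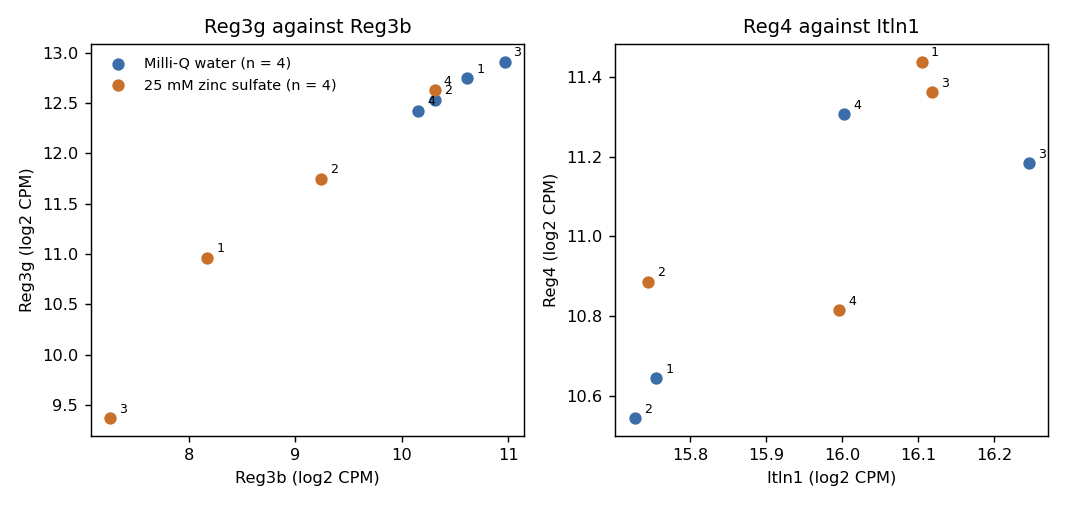
Level of Reg3g against Reg3b (left) and of Reg4 against Itln1 (right), in log2 CPM, with 1 point per mouse labelled by replicate number. Reg3b and Reg3g lie along 1 line (r = 0.981) on which zinc 4 sits among the Milli-Q mice, while Itln1 and Reg4 span much smaller ranges with a wider scatter (r = 0.804).

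The relation between Itln1 and Reg4 did not pass after adjustment. Their r was 0.804 (exact permutation p = 0.0274, adjusted 0.0686), rho was 0.762 (exact permutation p = 0.0368, adjusted 0.184), and r was 0.73 without Milli-Q 2 and zinc 2 and 0.806 centred on the group means. Without zinc 3 alone, r was 0.779. On shares of library totals r was 0.792, but -0.0395 without zinc 1 and zinc 3 and 0.644 centred (adjusted exact permutation p = 0.29). The count ratio of Itln1 to Reg4 was 25.9 to 36.3 in the Milli-Q libraries and 25.4 to 36.3 in the zinc libraries. Between Itln1 and the 3 Reg3 genes r was -0.168 with Reg3a, -0.241 with Reg3b and -0.291 with Reg3g, none of which passed. Without zinc 3 these were -0.0144, -0.00904 and -0.0384. Between Reg4 and the Reg3 genes r was -0.395 with Reg3a, -0.585 with Reg3b and -0.58 with Reg3g, none of which passed. Without zinc 3 these were -0.25, -0.47 and -0.5, and the last 2 pairs had r of 0.0676 and 0.0178 without zinc 1 and zinc 3. In all, 3 of the 10 pairs passed, and 1 did without zinc 3, Reg3b with Reg3g.

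How the libraries were scaled decided what Itln1 did against the Reg3 genes. On shares of library totals, added after the data had been seen, r between Itln1 and the Reg3 genes was -0.889 with Reg3a, -0.935 with Reg3b and -0.925 with Reg3g (adjusted exact permutation p = 0.0138, 0.0102 and 0.0124). Without zinc 1 and zinc 3 these were -0.721, -0.394 and -0.184, and centred on the group means -0.754, -0.868 and -0.9, with adjusted exact permutation p-values of 0.256 to 0.29. Reg4 against Reg3b was -0.943 on this scale, -0.828 without the same 2 libraries and -0.915 centred (adjusted exact permutation p = 0.0434). On shares all 10 pairs passed by Pearson r, 2 did when centred, and Reg3b with Reg3g kept its size at 0.978. By Spearman's rho Itln1 did not pass with Reg3a (-0.81), Reg3b (-0.69) or Reg3g (-0.548), with adjusted exact permutation p-values of 0.0544, 0.116 and 0.214. Reg4 with Reg3b did (-0.905, adjusted exact permutation p = 0.0152).

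Genes whose pattern was most like that of each member were taken from 5912 genes with a mean of at least 10 CPM, by Pearson r over the 8 libraries. These r are descriptions over libraries that share their depth and scaling. For Reg3b they were Inpp1, Pdzk1ip1 and Cldn12, a tight junction claudin, with an r of 0.995 each and of 0.991, 0.99 and 0.99 without zinc 3. For Reg3g they were Cr1l, a complement regulator, with 0.995, Tmem45b with 0.993 and Itpkc, an inositol trisphosphate kinase, with 0.991, and 0.981, 0.973 and 0.977 without zinc 3. For Reg3a they were Ier3ip1 (0.976), Ercc3 (0.968) and Abhd5 (0.966). An r over 0.9 was found for 528 genes with Reg3g, 240 with Reg3b, 35 with Reg3a, 30 with Itln1 and 15 with Reg4. Without zinc 3 these counts were 139, 142, 87, 49 and 33.

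Among the closest to Reg4 were Rpl21, a ribosomal protein, with 0.95, and Sdhb of respiratory complex II with 0.947. The closest to Itln1 were Ndufa9 of respiratory complex I with 0.95, the corepressor Sin3b with 0.946 and Defa38 with 0.944, and they stood at 0.951, 0.962 and 0.947 without zinc 3. Between Itln1 and the PC products Lyz1 and Defa24, r was 0.737 and 0.808, and between Reg3g and the same 2 it was 0.344 and 0.232.

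The signalling genes upstream of Reg3 were examined as a list, of which none was called. In the IL-22 and STAT3 arm 8 of 12 genes tested had a log2 fold change below 0, with a median of -0.145, against 49.2% and a median of 0.00621 over all genes tested. Without zinc 3 it was 4 of 12, with a median of 0.0116 against 0.00422 over all genes tested. Socs3, the feedback inhibitor that Stat3 induces, was at 607, 549, 585 and 567 CPM in Milli-Q 1 to 4 and at 155, 630, 15.7 and 400 CPM in zinc 1 to 4 (log2 fold change -0.94, SE 0.73, adjusted p = 0.60 in edgeR, and -0.54, SE 0.32, without zinc 3). Like Reg3g it was lowest in zinc 1 and zinc 3, while zinc 4 lay below and zinc 2 above the range of the Milli-Q libraries. Its r with Reg3g was 0.937, and 0.76 without zinc 3.

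Stat3 itself was less uneven, at 319 to 399 CPM in every library but zinc 3, where it was 135 CPM. Its log2 fold change was -0.24 (SE 0.28), or 0.0046 (SE 0.13) without zinc 3, and its r with Reg3g was 0.889, and 0.501 without zinc 3. The receptor chains of IL-22 gave the smallest p-values of the arm in each direction. Il10rb was at 37.6 to 46.9 CPM with Milli-Q water and 30.5 to 35.5 CPM with zinc (log2 fold change -0.37, SE 0.13, adjusted p = 0.485 in edgeR). Its zinc libraries all lay below its Milli-Q libraries, as they did for 3.12% of genes tested. Il22ra1 was at 31.8 to 46.4 and 37.6 to 69.2 CPM (0.42, SE 0.19, adjusted p = 0.485).

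In the microbial sensing arm 6 of 9 genes tested lay below 0, with a median of -0.222, and 5 of 9 did without zinc 3, with a median of -0.0097. The smallest p-values there belonged to Myd88 (-0.61, SE 0.39, and -0.29, SE 0.16, without zinc 3), the adaptor of Toll-like receptors, and to Tlr5 (1.17, SE 0.54, and 0.51, SE 0.45), the flagellin receptor. The summed level of the arm was 163 CPM in zinc 3 and 354 to 403 CPM in the others.

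Other epithelial products known from the same response were taken as a further list, of which no gene was called. All 6 genes tested (Lcn2, Fut2, Pigr, Duox2, Duoxa2 and Nos2) had a log2 fold change below 0, with a median of -0.989, and none had an unadjusted p under 0.05. Over all genes tested 49.2% lay below 0, with a median of 0.00621. Without zinc 3 the median of the list was -0.578 against 0.00422 over all genes tested. Of the 6, 3 then had an unadjusted edgeR p under 0.05, all lower with zinc. Among all 10755 genes tested without zinc 3, 400 were lower and 467 higher at that threshold. The list summed to 3265 to 5120 CPM with Milli-Q water and to 2546, 3074, 900 and 4423 CPM in zinc 1 to 4, and zinc 4 lay inside the Milli-Q range for each of the 6 genes. Lcn2, which binds bacterial siderophores, was at 24.1, 13.3, 17.7 and 4.88 CPM in Milli-Q 1 to 4 and at 1.97, 6.74, 0.0702 and 10.3 CPM in zinc 1 to 4, the zinc 3 value being under the limit of 3 counts (log2 fold change -1.65, SE 0.79, adjusted p = 0.49 in edgeR, and -1.21, SE 0.49, without zinc 3). As with Reg3g, zinc 4 was the highest zinc library and zinc 3 the lowest. The other 5 genes of the list of 11 were below the filter.

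**Figure D5:**
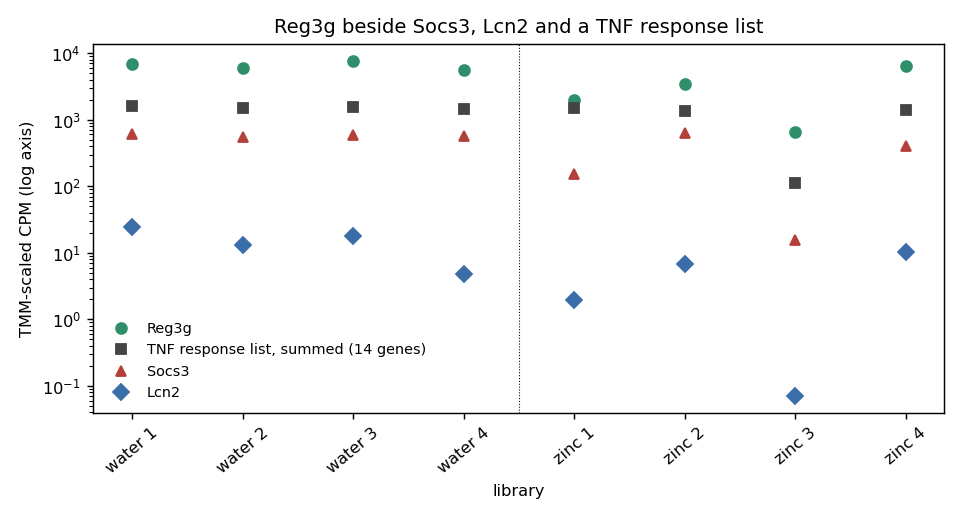
Level of Reg3g, Socs3 and Lcn2 and the summed level of 14 TNF response genes in each library, in TMM-scaled CPM on a log axis. In zinc 3 all 4 are low, with the TNF response sum at 112 CPM, whereas in zinc 1 Reg3g and Socs3 are low while the TNF response sum is 1480 CPM.

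The TNF response list itself had 13 of 14 genes below 0, with a median of -0.44, or 8 of 14 without zinc 3, with a median of -0.0974. Its smallest p-values belonged to Cxcl2 (-2.36, SE 0.80, adjusted p = 0.485 in edgeR, and -1.91, SE 0.59, without zinc 3) and Cx3cl1 (0.31, SE 0.30). Its summed level was 1436 to 1614 CPM with Milli-Q water and 1480, 1366, 112 and 1390 CPM in zinc 1 to 4. Zinc 1 and zinc 2, with Reg3g at 2000 and 3444 CPM, were thus near the Milli-Q libraries in this sum, and only zinc 3 was low on both. The sum does not stand for each gene. Irf1 was at 110 and 122 CPM in zinc 1 and zinc 2, against 141.3 to 169.5 CPM with Milli-Q water. Without zinc 3, 4 of the 14 had an unadjusted edgeR p under 0.05 and were lower with zinc, and 0 were higher. Over all 10755 genes tested these were 400 and 467. Among growth and receptor genes linked to Reg proteins, 2 of 4 lay below 0, and 1 of 4 did without zinc 3, with medians of -0.0039 and 0.16. Extl3, a reported receptor of Reg3 proteins, averaged 40.7 CPM over the 8 libraries (log2 fold change 0.12, SE 0.14). Gas6 had 1.13 (SE 0.43, adjusted p = 0.485, and 0.56, SE 0.29, without zinc 3) and Areg, an EGFR ligand, -0.79 (SE 0.78).

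The remaining genes of the Reg cluster were close to silent in these PCs. Reg2 had 0 counts, which allows up to 3, Reg3d had 8 counts over all libraries, and Reg1 had 88, of which zinc 3 held 4.63 CPM against at most 0.80 CPM elsewhere. Neither Itlnb nor Lgals6 was in the table by symbol. Of 21 other lectins, 9 passed the filter, 4 of them below 0, with a median of 0.0547, or 0.0415 without zinc 3, where again 4 lay below 0. Lgals9, a galectin, was the most abundant with 445 CPM on average, at 476 to 545 CPM with Milli-Q water and 414, 448, 169 and 510 CPM in zinc 1 to 4 (-0.39, SE 0.29, adjusted p = 0.59 in edgeR, and -0.13, SE 0.13, without zinc 3). Lgals8 (-0.53, SE 0.24) and Zg16, a goblet cell lectin (1.91, SE 0.68), had the smallest p-values in each direction, with an adjusted p of 0.485 for both.

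Markers of other epithelial cells differed between the zinc libraries in which Reg3 levels differed. The summed level of 13 enterocyte markers, none at 0 throughout, was 113 to 144 CPM with Milli-Q water and 203, 149, 605 and 97.3 CPM in zinc 1 to 4. The 7 crypt stem cell markers summed to 432 to 619 CPM with Milli-Q water and to 1101, 788, 1145 and 508 CPM in zinc 1 to 4. In both lists zinc 4, the library with Reg3 levels inside the Milli-Q range, was the lowest of the zinc libraries and inside or below that range. All 9 enterocyte and all 6 stem cell genes tested had a log2 fold change above 0, with medians of 0.984 and 1.18 and with Apob (1.57, SE 0.42) and Axin2 (1.94, SE 0.54) of smallest p, both at an adjusted p of 0.485. Without zinc 3, 5 of 9 enterocyte and 5 of 6 stem cell genes lay above 0, with medians of 0.285 and 0.703. Apob was then at 1.28 (SE 0.37) and Axin2 at 1.24 (SE 0.37). The other 4 enterocyte genes lay below 0 without zinc 3, and Apoa1, at -3.29 (SE 0.80), had the smallest p of that list. The part of these markers in the Reg3 levels was not tested.

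Goblet cell markers summed to 11640 to 17220 CPM with Milli-Q water and 13420 to 17370 CPM with zinc, with 5 of 11 below 0 and a median of 0.108, or 6 of 11 and -0.0491 without zinc 3. At an unadjusted edgeR p under 0.05, 3 of the 11 were higher with zinc, Zg16, Clca1 (1.80, SE 0.69) and Fcgbp (1.81, SE 0.71), and 1 was lower, Spdef (-0.45, SE 0.19). Of all 10707 genes tested, 687 were higher and 405 lower at that threshold. Without zinc 3, 2 of the 11 were higher and 1 lower, against 467 and 400 of all 10755 genes tested. Clca1 and Fcgbp are named after their values were seen, and no goblet cell marker was called. Without zinc 3 the folds were 1.04 (SE 0.48) for Zg16, 1.25 (SE 0.56) for Clca1, 0.65 (SE 0.42) for Fcgbp and -0.42 (SE 0.17) for Spdef. The smallest p of the list without zinc 3 belonged to Muc2, at 1.10 (SE 0.27) against 0.84 (SE 0.39) with all libraries. For PC markers the sums were 359700 to 663200 and 341800 to 429600 CPM, with 10 of 14 below 0 and a median of -0.238, or 9 of 14 and -0.205 without zinc 3. Their smallest p-values belonged to Mptx1 (-0.95, SE 0.40) and to Kit (1.13, SE 0.43, and 0.43, SE 0.19, without zinc 3), the gene of a sorting marker. Enteroendocrine markers, of interest beside Reg4, summed to 26.6 to 45.9 CPM with Milli-Q water and 16.4 to 30.4 CPM with zinc, with Nts at 0, and Tac1, at 11.5 CPM on average with Milli-Q water and 2.82 CPM with zinc, had the smaller p of the 2 tested (adjusted p = 0.485). Tuft cell markers summed to at most 6.96 CPM outside zinc 3 and to 15.2 CPM in it (Dclk1 1.03, SE 0.73, and 0.36, SE 0.67, without zinc 3). Immune markers summed to 13.2 to 28.3 CPM, nearly all of it Lyz2 (-0.07, SE 0.25), with Adgre1 at 0. With all libraries and without zinc 3, the median was -1.14 and -0.954 for the 2 enteroendocrine genes tested, 0.367 and -0.353 for the 3 tuft cell genes, and -0.07 and 0.09 for Lyz2, the only immune gene tested. No gene of these lists was called, with or without zinc 3.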

How the data were processed

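The table the authors deposited holds raw counts of reads for each Ensembl gene in 8 samples. The submitters' processing notes name FastQC 0.12.0, STAR 2.7.10a, DESeq2 and the mm39 genome. Per the labels, libraries were made with a stranded mRNA kit. The counting tool, its strand setting and its rule for reads with several matches are not given in the sources used here. Symbols, lengths and positions came from GENCODE M39 on GRCm39, to which 54749 of 55414 identifiers matched. The 665 others held 0.00443% of counts. Upstream windows came from the RefSeq promoter table (GRCm38.p6), in which all 5 genes matched, and were placed on GRCm39 by exact match.

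Zinc was compared with water in edgeR 4.0.16 (R 4.3.3) by the quasi-likelihood F-test, with TMM factors and filterByExpr at its defaults. This left 10707 genes with 99.89% of counts, and p-values were adjusted over them (Benjamini-Hochberg, threshold 0.05). CPM used a prior count of 0.5 where logged. Alternatives were other scaling factors and filters, limma-voom 3.58.1 with sample weights, DESeq2 1.42.0, the replicate number as a block, and each library left out. Correlations used two-sided exact permutation over 40320 pairings. Steps were tested on simulated data. Wilson intervals (95%) and the limit of 3 counts cover counting error alone, as the reads had no molecular identifiers. No 2 libraries agreed within sampling noise (chi-square over degrees of freedom of 6.45 or more in 28 pairs), so each was 1 replicate.

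The 5 genes and all lists were chosen with earlier results of these data known. Named genes were the 5, the 3 most alike in pattern to each, the gene of smallest p in each direction of each list, the most abundant other lectin, and Stat3, Socs3, Extl3, Reg1, Reg2, Reg3d, Itlnb, Lyz1 and Defa24. Other genes were named after their values were seen, and 2 genes of the rule or lists are not reported here. The lists covered other lectins, the IL-22 and STAT3 arm, microbial sensing, other products of that response, Reg receptor and growth genes, TNF response genes and markers of 7 cell types.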

Additional observations from a re-analysis of the deposited data

Results flagged for a closer look

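Values were searched for a sample far from the other 3 of its group, by the gap to the nearest sample over the range of the group. Of 52 groups searched 3 stood out, where chance gives about 1 in 20 (2.6 groups). The summed level of the microbial sensing genes in zinc 3 was 163 CPM against 354 to 388 CPM in the other zinc libraries. The summed level of the TNF response genes in zinc 3 was 112 CPM against 1366 to 1480 CPM. The share of Reg4 in Milli-Q 4 was 0.226% of counts (95% Wilson interval 0.223 to 0.228%) against 0.166 to 0.176% in the other Milli-Q libraries. None of the 5 genes stood out in CPM in either group.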

How the results depend on the processing

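Over all alternatives the Reg3 and Reg4 folds kept their direction, and no gene of the 5 passed the adjusted threshold in any of them. The fold of Itln1 turned to -0.013 without Milli-Q 1 and -0.019 without Milli-Q 2, both within its SE. Genes called were 0 in all but DESeq2 (4). Leaving out 1 library gave log2 fold changes of -0.019 to 0.16 for Itln1, -1.79 to -1.18 for Reg3a, -2.10 to -1.05 for Reg3b, -1.68 to -0.72 for Reg3g and 0.08 to 0.33 for Reg4. Genes with an unadjusted p under 0.05, 1092 with all libraries, were 641 without Milli-Q 3, 672 without Milli-Q 4, 312 without both, 1960 without zinc 4 and 1711 with no filter. The stricter filter dropped Reg3a.

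With the replicate number as a block the folds were -1.47 for Reg3a, -1.76 for Reg3b, -1.44 for Reg3g, 0.06 for Itln1 and 0.21 for Reg4, with 0 genes called and 802 at an unadjusted p under 0.05. The deviations of same-numbered libraries had r of -0.0146 to 0.0301, within the range of differently numbered ones (-0.128 to 0.143). With so few libraries this cannot decide whether the numbers pair the samples, and the labels do not say.

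Without Defa genes in the denominator the differences in share of counts were -0.000136 (Reg3a), -0.137 (Reg3b) and -0.504 (Reg3g) percentage points. Per kb of exon union Reg3g was at 2230 CPM. Correlations moved as follows, where library totals and leaving out libraries other than zinc 3 were chosen after seeing the data. Centred on group means they no longer passed for Reg3a and Reg3b (0.75), Reg3a and Reg3g (0.66) and Reg3b and Reg3g (0.973). With library totals those newly passing by Pearson r were Itln1 with Reg3a (-0.889), Reg3b (-0.935), Reg3g (-0.925) and Reg4 (0.792), and Reg4 with Reg3a (-0.761), Reg3b (-0.943) and Reg3g (-0.897). Leaving out 1 library gave 0.862 to 0.915 for Reg3a and Reg3b and 0.794 to 0.883 for Reg3a and Reg3g, several of which no longer passed, and -0.536 to 0.0376 for Itln1 and Reg3a, which turned positive without zinc 1. The cause of these shifts was not tested. Counts limit Reg3a only.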
